A study of Mus musculus with 8 samples.

Results

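The genes described are 10 members and close relatives of the AP-1 family of transcription factors, Fos, Fosb, Fosl1, Fosl2, Jun, Junb, Jund, Atf3, Maff and Batf, in mouse hearts that had gone through ischaemia and reperfusion. They were taken by name, 10 of 19938 genes measured under a single symbol, and each was read by 1 probe set. Of the 8 male mice, 4 had received recombinant DJ-1 protein and 4 had received phosphate-buffered saline (PBS, the placebo group), in both cases 1 hour before surgery. In every mouse the left anterior descending (LAD) coronary artery was then tied for 45 minutes and the heart reperfused for 2 hours. The labels give the strain of all mice as CH3, their age as 8 to 10 weeks and their weight as 25 to 30 g. The labels used here state neither the dose of DJ-1 nor whether each array is 1 mouse, and numbered samples were taken as separate mice. No unoperated heart was analysed here, so the levels below compare injured hearts with injured hearts.

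AP-1 is a dimer of basic leucine zipper proteins, typically one of the FOS group with one of the JUN group, that binds a short palindromic site in the control regions of many genes. FOS, FOSB and JUN belong to the immediate early genes: their transcripts are made within minutes of a stress or growth signal, from factors already present in the cell, and are then rapidly degraded. In heart muscle stretch, ischaemia, reactive oxygen at reperfusion and catecholamines are known triggers, and ATF3, a related zipper protein that can pair with JUN, is known to be induced in the heart by ischaemia and reperfusion. The values are the authors' log2 expression levels, on which 1 unit is a doubling.

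The promoter windows of the 4 genes that varied most from heart to heart (Fos, Fosb, Jun and Atf3), and of Fosl2, which followed another pattern, are shown so that their short control elements can be compared. RefSeq windows of build GRCm38.p6, from 250 bases before to 50 bases after the start site, were held for 9 of the 10 genes. Capitals mark a match to one of the motifs searched, and all other bases are in lower case.
Fos (chr12:85473640-85473939, forward strand): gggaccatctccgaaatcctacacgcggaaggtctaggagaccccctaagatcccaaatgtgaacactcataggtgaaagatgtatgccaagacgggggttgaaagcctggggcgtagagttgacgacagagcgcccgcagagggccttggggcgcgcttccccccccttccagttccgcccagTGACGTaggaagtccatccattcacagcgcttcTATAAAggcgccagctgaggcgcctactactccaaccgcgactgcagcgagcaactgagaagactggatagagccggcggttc
Fosb (chr7:19309996-19310295, reverse strand): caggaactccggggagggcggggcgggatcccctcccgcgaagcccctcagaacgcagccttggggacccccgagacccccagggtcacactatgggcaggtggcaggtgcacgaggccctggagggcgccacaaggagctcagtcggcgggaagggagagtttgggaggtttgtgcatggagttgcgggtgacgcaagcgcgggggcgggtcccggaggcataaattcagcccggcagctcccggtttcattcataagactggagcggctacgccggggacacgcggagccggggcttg
Jun (chr4:95052173-95052472, reverse strand): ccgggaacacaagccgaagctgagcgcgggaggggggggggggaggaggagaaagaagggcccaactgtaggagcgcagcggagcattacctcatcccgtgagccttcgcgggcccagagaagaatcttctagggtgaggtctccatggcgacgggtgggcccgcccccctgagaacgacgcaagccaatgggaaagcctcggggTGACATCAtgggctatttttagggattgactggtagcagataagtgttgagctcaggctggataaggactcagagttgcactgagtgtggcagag
Atf3 (chr1:191183284-191183583, reverse strand): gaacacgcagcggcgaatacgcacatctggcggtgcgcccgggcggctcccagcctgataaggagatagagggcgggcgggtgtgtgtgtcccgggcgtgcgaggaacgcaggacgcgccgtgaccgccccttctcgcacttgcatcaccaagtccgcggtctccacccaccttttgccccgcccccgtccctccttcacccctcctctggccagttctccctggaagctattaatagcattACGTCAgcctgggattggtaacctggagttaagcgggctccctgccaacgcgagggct
Fosl2 (chr5:32136222-32136521, forward strand): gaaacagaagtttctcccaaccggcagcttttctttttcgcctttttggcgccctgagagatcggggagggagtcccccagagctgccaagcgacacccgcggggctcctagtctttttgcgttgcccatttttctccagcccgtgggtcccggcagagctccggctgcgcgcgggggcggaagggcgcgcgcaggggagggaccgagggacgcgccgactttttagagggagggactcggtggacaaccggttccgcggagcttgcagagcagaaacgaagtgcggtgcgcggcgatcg

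The motifs were the cAMP response element (CRE, TGACGTCA), its half-site TGACGT, the AP-1 site TGACTCA, the AP-1-like sequence TGACATCA and the CArG box bound by serum response factor, all on both strands, and the TATA box TATAAA on the strand of the gene. A full CRE also counts as a half-site. The half-site and the AP-1-like sequence were added after the windows had been seen. The Fos window held a CRE half-site beginning at position -66 and a TATA box at -33, counted from the start site. The Jun window held the AP-1-like sequence at -45, and the Atf3 window held a CRE half-site at -8 on the opposite strand. None of these motifs was found in the Fosb or Fosl2 windows. Among all 32851 mouse windows of this length, 7.51% held a CRE half-site, 3.62% the AP-1-like sequence, 8.32% the TATA box, 5.2% the AP-1 site, 1.79% the full CRE and 1.63% a CArG box. Of the other members, Maff held a full CRE at -29 in 1 of its 3 windows and the AP-1-like sequence at -45 in another, Batf held a CRE half-site at -98, and Junb held the TATA letters at position 1.

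The arrays resembled each other closely. Correlations between arrays ran from 0.978 to 0.987 and array medians from 5.25 to 5.35. On the first principal component (26.4% of the variance) DJ-1 replicates 3 and 4 stood apart at 19.6 and 23.5, while the remaining 6 lay between -15.0 and 5.31. All 12 ventricular cardiomyocyte markers lay above 4.74, the 95th percentile of 1027 olfactory receptor genes, which served as a guide to background. All 10 AP-1 genes lay above it as well. In bulk tissue fewer cells of a type and less RNA per cell cannot be told apart.

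No AP-1 gene passed the comparison of DJ-1 with placebo hearts. In the limma fit over all genes 0 of the 10 had an adjusted p under 0.05 (0% of all genes tested did), and their adjusted p ran from 0.824 to 0.991. Before adjustment 1 of the 10, Fosl2, had a p under 0.05, a condition met by 5.99% of all genes. The mean was higher in DJ-1 hearts for 8 of the 10 genes and for 52.5% of all genes. The median difference was 0.14 over the 10 genes and 0.01 over all genes. For 9 of the 10 the difference between the groups was smaller than the standard deviation between hearts of the same group. The share of all genes for which this holds was not counted, so it does not set the AP-1 genes apart.

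**Figure D1:**
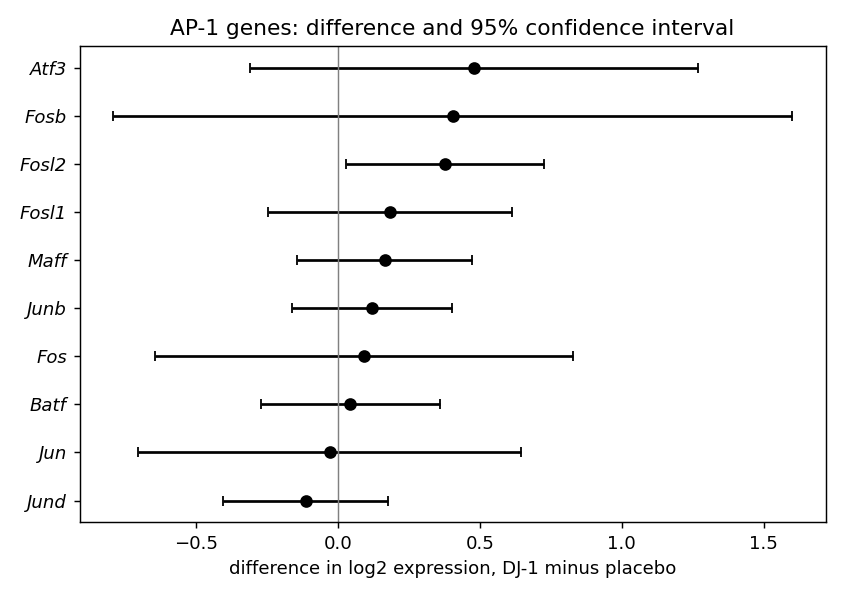
Difference in log2 expression between DJ-1 and placebo hearts (horizontal axis, DJ-1 minus placebo) for each AP-1 gene, with the 95% confidence interval of the limma fit (bars, 4 arrays a group). The interval of Fosl2 begins at 0.03, just above 0, and those of the other 9 genes include 0, the widest being that of Fosb from -0.79 to 1.60.

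Among the FOS group, Fos itself, the inducible partner of JUN proteins, stood at 7.06, 7.62, 8.35 and 7.54 in DJ-1 replicates 1 to 4, against 6.52, 7.73, 7.73 and 8.21 in placebo replicates 1 to 4. The groups overlapped throughout, with the highest heart in the DJ-1 group and the lowest in the placebo group. The means were 7.64 ± 0.53 in DJ-1 hearts and 7.55 ± 0.72 in placebo hearts (SD, n = 4 each). The difference of 0.09 had a 95% confidence interval of -0.64 to 0.83 (limma, adjusted p = 0.968), which does not reach 1 log2 unit in either direction. Leaving out 1 heart at a time gave differences from -0.25 without placebo replicate 1 to 0.32 without placebo replicate 4.

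Fosb, the closest relative of Fos and also an immediate early gene, spanned the widest range of the 10. Its levels were 7.47, 8.02, 9.32 and 8.22 in DJ-1 hearts, against 5.98, 8.73, 8.26 and 8.46 in placebo hearts. Between the lowest and the highest heart lay 3.35 log2 units, a 10.2-fold range. Placebo replicate 1 was the low extreme and DJ-1 replicate 3 the high one, and the other 6 hearts lay between 7.47 and 8.73. The difference between groups was 0.40 (SE 0.54, limma adjusted p = 0.910). Leaving out 1 heart at a time gave differences from -0.22 without placebo replicate 1 to 0.69 without placebo replicate 2.

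Fosl2 (FRA-2), a FOS-group protein that lacks the strong activation domain of FOS and whose gene AP-1 itself induces after the first wave, had the smallest p of the 10. Its levels were 8.71, 8.89, 8.72 and 8.76 in DJ-1 hearts, against 8.70, 8.71, 7.97 and 8.19 in placebo hearts. Fosl2 was the 1 gene of the 10 whose groups did not overlap (3.22% of all genes had none), but the gap between the lowest DJ-1 heart at 8.711 and the highest placebo heart at 8.708 was far smaller than the spread within either group. The DJ-1 hearts lay close together (SD 0.08), whereas the placebo hearts formed a pair near the DJ-1 level and a pair well below it (SD 0.37). The difference was 0.38 (SE 0.16, 95% confidence interval 0.03 to 0.73, unadjusted p = 0.0362, limma adjusted p = 0.824). Without placebo replicate 3 the difference was 0.24 and without placebo replicate 2 it was 0.48.

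Fosl1 (FRA-1), the other FOS-related antigen, showed the same arrangement. DJ-1 hearts had 6.06, 6.18, 6.06 and 5.98, against 6.32, 6.29, 5.54 and 5.40 in placebo hearts. The DJ-1 values sat between the 2 high and the 2 low placebo hearts, so the groups overlapped. The difference was 0.18 (SE 0.20, limma adjusted p = 0.886). It was 0.02 without placebo replicate 4 and 0.33 without placebo replicate 1. The spread of the 4 DJ-1 hearts (SD 0.08) was again narrower than that of the placebo hearts (SD 0.49), and no test of the spread was made.

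**Figure D2:**
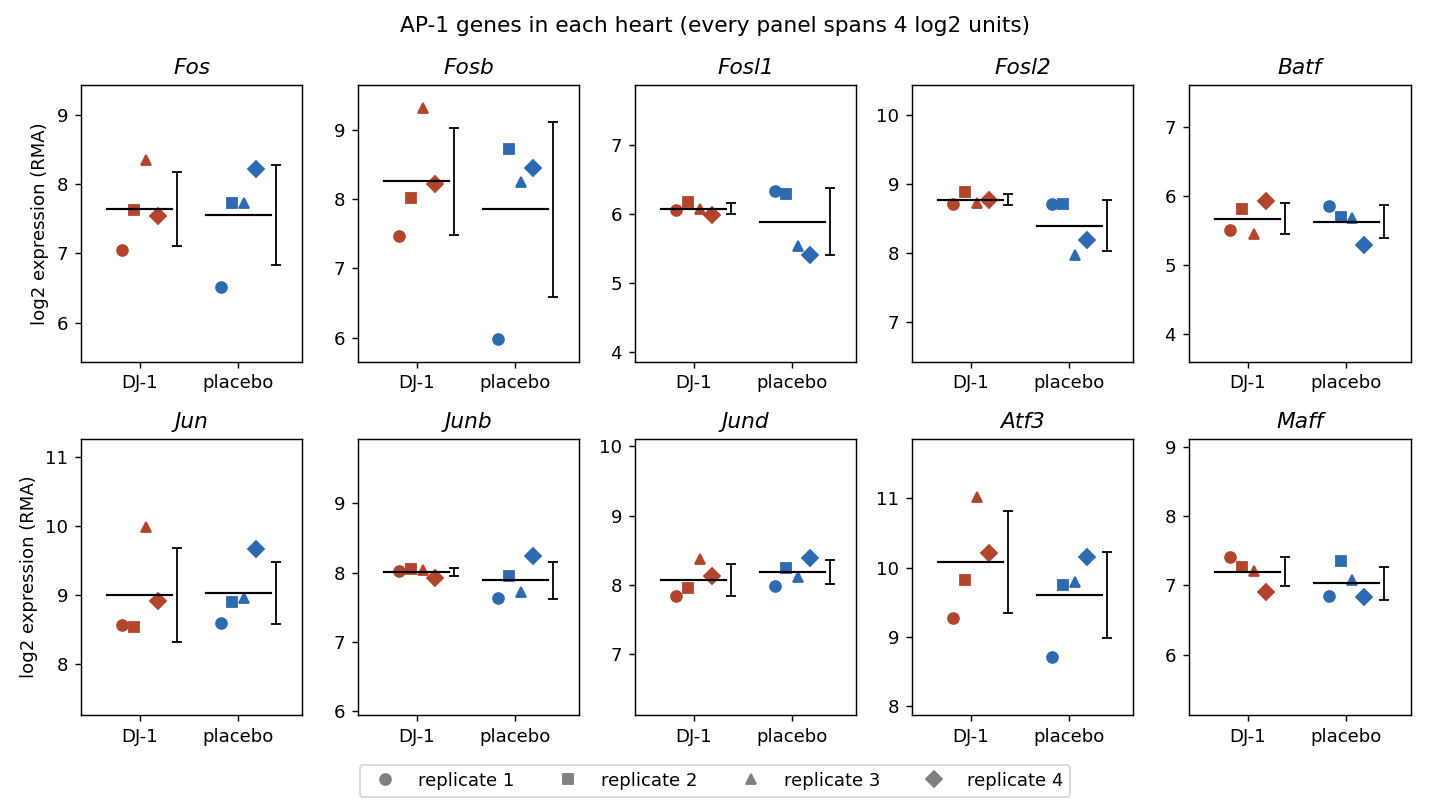
Log2 expression of each AP-1 gene in the 4 DJ-1 and the 4 placebo hearts (points, shaped by replicate number, 1 array each), with group means (lines) and SD (bars). Fos, Fosb, Jun and Atf3 scatter widely in both groups, and Fosl1 and Fosl2 are tight in DJ-1 hearts (SD 0.08 each) and split in placebo hearts.

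In the JUN group, Jun, the main partner of FOS, had 8.57, 8.53, 9.99 and 8.91 in DJ-1 hearts, against 8.60, 8.90, 8.96 and 9.67 in placebo hearts. Each group held 1 heart well above the rest, DJ-1 replicate 3 and placebo replicate 4. The means of 9.002 ± 0.68 in DJ-1 hearts and 9.031 ± 0.45 in placebo hearts (SD, n = 4 each) differed by -0.03 (95% confidence interval -0.70 to 0.64, limma adjusted p = 0.991). Without DJ-1 replicate 3 the difference was -0.36 and without placebo replicate 4 it was 0.18, and neither passed.

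Junb, a weaker activator that can hold back JUN at some genes, had 8.03, 8.06, 8.04 and 7.92 in DJ-1 hearts, against 7.63, 7.95, 7.73 and 8.24 in placebo hearts. All DJ-1 values fell inside the placebo range, and the difference was 0.12 (SE 0.13, limma adjusted p = 0.886). It was 0.04 without placebo replicate 1 and 0.24 without placebo replicate 4 (limma unadjusted p = 0.0482, adjusted p = 0.996). Jund, the JUN protein that most cells express without a stimulus, had 7.83, 7.95, 8.37 and 8.13 in DJ-1 hearts, against 7.98, 8.25, 8.11 and 8.39 in placebo hearts. Its difference of -0.11 (SE 0.13, limma adjusted p = 0.897) was also within the spread, and the 8 hearts spanned only 0.56 log2 units. Omitting DJ-1 replicate 1 gave a difference of -0.03, and omitting DJ-1 replicate 3 gave -0.21.

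Atf3, a stress-induced zipper protein that mostly represses its targets, had 9.27, 9.83, 11.03 and 10.21 in DJ-1 hearts, against 8.70, 9.75, 9.80 and 10.16 in placebo hearts. The groups overlapped, although the lowest heart was a placebo heart and the 2 highest were DJ-1 hearts. The means were 10.08 ± 0.74 in DJ-1 hearts and 9.60 ± 0.63 in placebo hearts (SD, n = 4 each). The difference of 0.48 was the largest of the 10 (95% confidence interval -0.31 to 1.27, limma adjusted p = 0.847). Omitting DJ-1 replicate 3 brought it to 0.17, and omitting placebo replicate 1 brought it to 0.18. Omitting placebo replicate 4 brought it to 0.67, and omitting DJ-1 replicate 1 to 0.75 (limma unadjusted p = 0.0498, adjusted p = 0.700).

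Maff, a small MAF protein with no activation domain of its own, had 7.41, 7.26, 7.21 and 6.90 in DJ-1 hearts, against 6.85, 7.35, 7.08 and 6.84 in placebo hearts, and differed by 0.16 (SE 0.14, limma adjusted p = 0.864). Omitting DJ-1 replicate 1 gave a difference of 0.09, and omitting placebo replicate 2 gave 0.27. Batf, a zipper protein of lymphoid and myeloid cells that pairs with JUN proteins, had 5.51, 5.81, 5.46 and 5.92 in DJ-1 hearts, against 5.86, 5.70, 5.68 and 5.29 in placebo hearts. Its difference was 0.04 (SE 0.14, limma adjusted p = 0.965). In both genes the groups overlapped over most of their range.

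Several of these genes varied widely from heart to heart. The within-group standard deviation of the limma fit exceeded the median of all genes (0.17) for all 10, and it exceeded the 99th percentile of all genes (0.52) for 4 of them. These 4 were Fosb at 1.05, Atf3 at 0.68, Fos at 0.64 and Jun at 0.58. Fosl1 lay at percentile 95.9 and Fosl2 at percentile 87.7, whereas Batf, Maff, Jund and Junb lay between percentiles 65.6 and 79.2. In fold terms the 8 hearts spanned 5.01-fold for Atf3, 3.56-fold for Fos and 2.75-fold for Jun, against 1.47-fold for Jund.

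**Figure D3:**
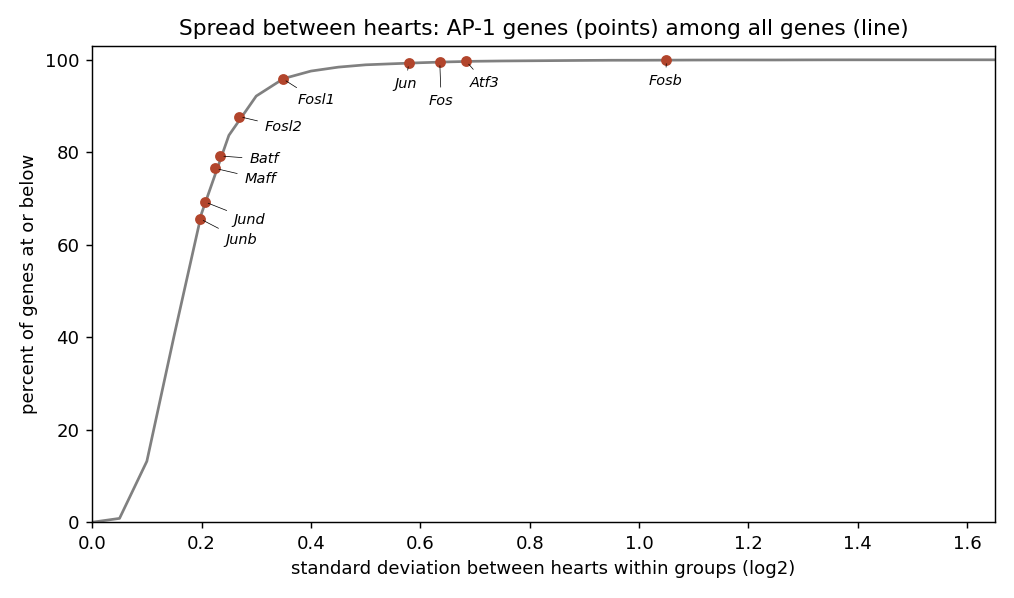
Share of all 19938 genes (line, vertical axis in percent) at or below a given standard deviation between hearts of the same group (horizontal axis, log2 units), with the AP-1 genes as points. Jun, Fos, Atf3 and Fosb lie beyond 0.52, the 99th percentile, and Junb, Jund, Maff and Batf lie in the main body of genes.

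The hearts at the extremes were shared by some of the genes. DJ-1 replicate 3 held the highest level of 4 genes (Fos, Fosb, Jun and Atf3), and placebo replicate 1 held the lowest level of 4 (Fos, Fosb, Junb and Atf3). Placebo replicate 4 held the lowest level of 3 genes (Fosl1, Maff and Batf) and the highest of 2 (Junb and Jund). Relative to the mean of all 8 hearts, DJ-1 replicate 3 was at 0.75 for Fos, 1.27 for Fosb, 1.18 for Atf3 and 0.97 for Jun. Placebo replicate 1 was at -1.08 for Fos, -2.08 for Fosb and -1.14 for Atf3, but only at -0.42 for Jun. Fosl1 and Fosl2 did not follow this order: both were lowest in placebo replicates 3 and 4, at -0.44 and -0.58 for Fosl1 and -0.61 and -0.39 for Fosl2.

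**Figure D4:**
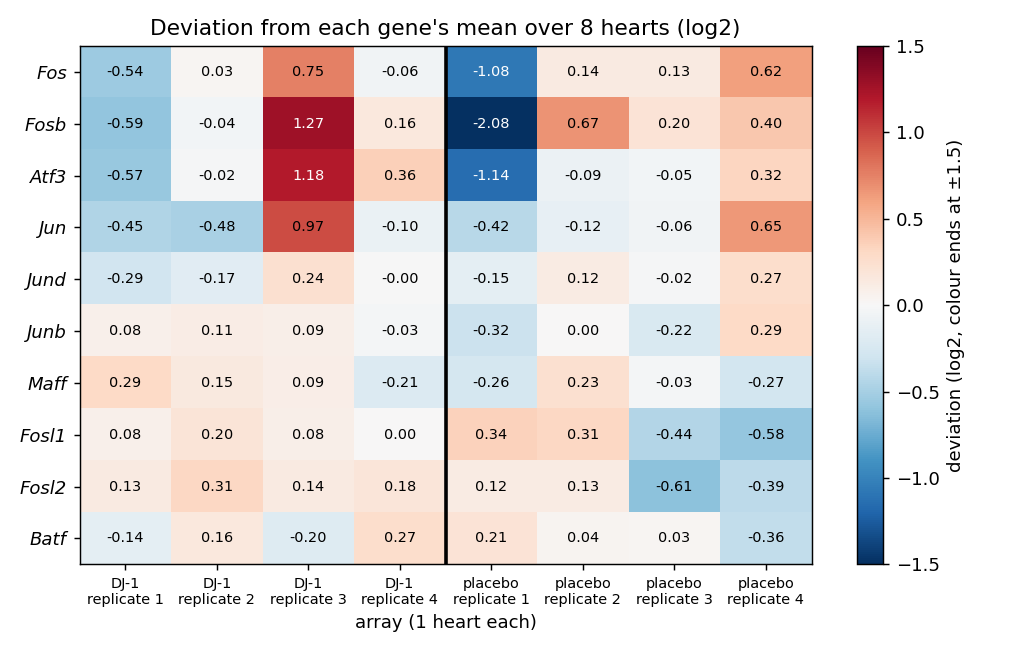
Deviation of each AP-1 gene (rows) from its own mean over the 8 hearts, in log2 units, for each array (columns, DJ-1 left of the black line and placebo right of it). DJ-1 replicate 3 is red and placebo replicate 1 blue for Fos, Fosb, Atf3 and Jun, while Fosl1 and Fosl2 are blue in placebo replicates 3 and 4.

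The joint movement was tested by correlating each of the other 9 genes with Fos over the 8 hearts, with exact permutation tests (two-sided) and adjustment over the 9 relations. Fosb followed Fos with a Pearson r of 0.94 (exact permutation p = 0.00114, adjusted p = 0.0103) and a Spearman rho of 0.95 (p = 0.00114, adjusted p = 0.0103). Atf3 followed Fos with an r of 0.91 (exact permutation p = 0.00290, adjusted p = 0.0131) and a rho of 0.67 (p = 0.0831, adjusted p = 0.150). Jund and Jun had r of 0.81 each (exact permutation p = 0.0132 and 0.0194, adjusted p = 0.0396 and 0.0435), with rho of 0.81 and 0.74 (p = 0.0218 and 0.0458, adjusted p = 0.0980 and 0.138). With adjustment over these 9 relations, 4 therefore passed by Pearson r and 1 by rank. The share of all genes that follow Fos as closely was not counted. These counts therefore do not set the AP-1 genes apart from other genes.

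The other 5 genes did not pass. Junb had an r of 0.66 (exact permutation p = 0.0732, adjusted p = 0.132) and a rho of 0.57 (p = 0.151, adjusted p = 0.227). Maff had an r of 0.07 and a rho of -0.05 (exact permutation p = 0.866 and 0.935, adjusted p = 0.866 and 0.935). Fosl2, Fosl1 and Batf had negative coefficients, with r of -0.30, -0.52 and -0.57 (exact permutation p = 0.503, 0.183 and 0.134, adjusted p = 0.565, 0.236 and 0.201). Their rho were -0.12, -0.33 and -0.67 (p = 0.793, 0.428 and 0.0831, adjusted p = 0.892, 0.550 and 0.150).

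Without DJ-1 replicate 3 and placebo replicate 1, the hearts farthest from the Fos median, r with Fos was 0.90 for Jund, 0.84 for Jun, 0.79 for Fosb and 0.74 for Atf3. None of the 4 passed on the remaining 6 hearts (exact permutation, adjusted p from 0.213 to 0.270). The coefficients of Jund and Jun were higher than over all 8 hearts and those of Fosb and Atf3 lower, and with fewer hearts the loss of a call does not show that a relation rests on those 2. Taken as deviations from the group means, which removes the treatment, the r values were 0.96 for Atf3, 0.95 for Fosb, 0.88 for Jund and 0.82 for Jun.

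**Figure D5:**
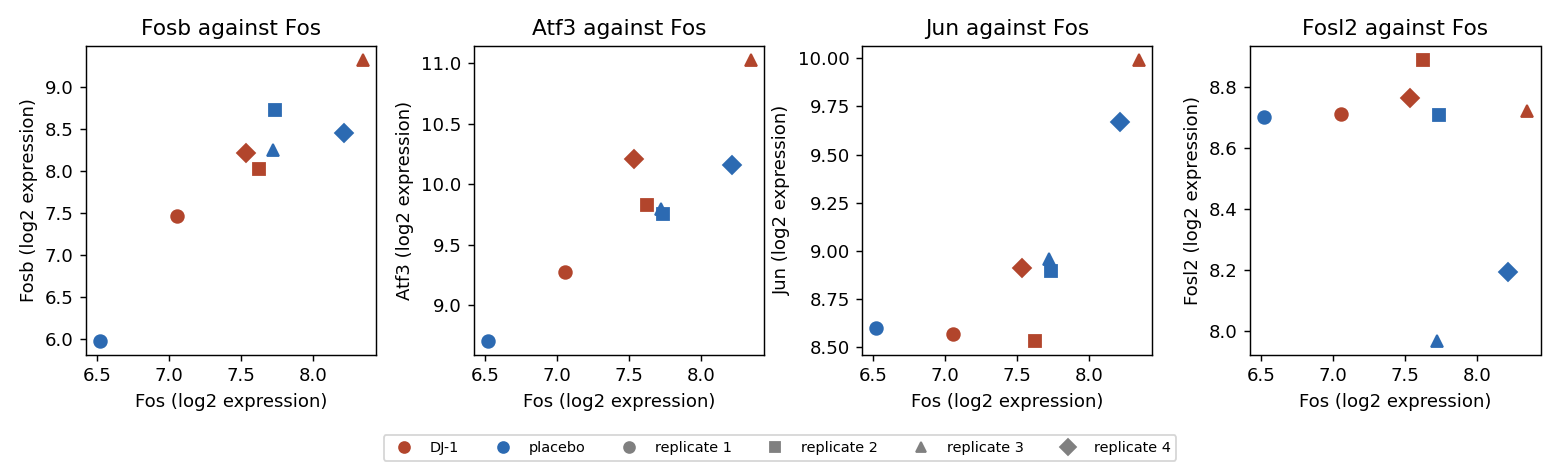
Log2 expression of Fosb, Atf3, Jun and Fosl2 (vertical axes) against that of Fos (horizontal axes) in the 8 hearts, coloured by group and shaped by replicate number. Fosb and Atf3 climb with Fos across both groups (r = 0.94 and 0.91), Jun is raised in the 2 hearts with the most Fos, and Fosl2 shows no such rise (r = -0.30).

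Fosl1 and Fosl2 shared low levels in the same 2 placebo hearts. Over all 45 pairs of the 10 genes, a family added after seeing the data, their r was 0.87 (exact permutation p = 0.0277, adjusted p = 0.156) and their rho was 0.31 (p = 0.462, adjusted p = 0.611). Without placebo replicates 3 and 4, the hearts farthest from the Fosl1 median, r was -0.13, with Fosl2 spanning only 8.70 to 8.89 in the hearts left. With fewer hearts and so narrow a range, this does not decide whether the relation rests on those 2 hearts. In the same family Jun and Jund had an r of 0.89 (exact permutation p = 0.00174, adjusted p = 0.0391) and a rho of 0.86 (p = 0.0107, adjusted p = 0.231), and 0.86 for r without DJ-1 replicate 3 and placebo replicate 4. Adjusted over the 45 pairs, the r of Fosb and Atf3 with Fos still passed (exact permutation, adjusted p = 0.0391 and 0.0399). Those of Jund and Jun with Fos did not (exact permutation, adjusted p = 0.0989 and 0.124). Nor did the rho of Fosb with Fos (exact permutation, adjusted p = 0.051).

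Marker levels of other cell types also differed between the hearts. For neutrophils 13 of 15 markers were measured, 11 of them above background, and their mean level relative to the average of all hearts was 0.77, 0.97, 0.00 and -0.40 in DJ-1 replicates 1 to 4, against -0.22, 0.75, -0.57 and -1.30 in placebo replicates 1 to 4. Their summed level ranged from 10.14 to 11.71 on the log2 scale in DJ-1 hearts, against 8.72 to 11.40 in placebo hearts. The 2 placebo hearts with low Fosl1 and Fosl2 were therefore also the 2 with the lowest neutrophil marker levels in that group. The 3 measured erythroid markers were lowest in the same hearts, at -0.40 and -0.50. Placebo replicate 1, the heart with little Fos and Fosb, had the highest mean of 8 skeletal muscle markers, at 0.53, against -0.23 to 0.10 in the other hearts. Only 5 of these 8 lay above background. By summed level placebo replicate 1 was not the highest, as the maximum was 13.31 in DJ-1 hearts and 13.24 in placebo hearts. Ventricular cardiomyocyte markers stayed within -0.11 to 0.05 in DJ-1 hearts and -0.05 to 0.13 in placebo hearts. Atrial cardiomyocyte markers (4 of 6 above background) stood at 0.56 in placebo replicate 2, against -0.30 to 0.08 in the other hearts. In that heart Fos and Atf3 lay at 0.14 and -0.09 from their means, so not every marker shift went with an AP-1 extreme. The part of these cell types in the AP-1 levels was not tested.

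Genes whose levels followed those of Fos, Jun and Atf3 most closely were sought among the 9969 genes above the median level (5.79), by Pearson r over the 8 hearts and as a description only. For Fos these were the predicted gene Gm15455 (r = 0.96), the antiproliferative early gene Btg2 (r = 0.96) and the zinc finger early gene Egr1 (r = 0.95). For Jun they were the phosphatase-like gene Dusp27 (r = 0.97), Spaca4 (r = 0.96) and the orphan nuclear receptor gene Nr4a1 (r = 0.96). For Atf3 they were Samd10 (r = 0.97), the stress-responsive kinase gene Plk3 (r = 0.96) and the mitochondrial carrier gene Slc25a25 (r = 0.94). Gm15455, Spaca4 and Samd10 spanned only 1.38-fold, 1.34-fold and 1.49-fold over the 8 hearts. How high the top r among 9969 genes would be by chance was not worked out.

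Egr1, Nr4a1 and Btg2 are immediate early genes themselves. Egr1 stood at 8.93, 9.01, 10.00 and 9.14 in DJ-1 hearts, against 8.41, 9.33, 9.37 and 10.08 in placebo hearts, lowest in placebo replicate 1 and highest in placebo replicate 4. Nr4a1 stood at 8.86, 8.88, 11.35 and 9.87 in DJ-1 hearts, against 9.37, 9.43, 10.21 and 10.72 in placebo hearts, highest in DJ-1 replicate 3. Btg2 ranged from 9.20 to 10.65 in DJ-1 hearts and from 8.77 to 10.09 in placebo hearts. The group differences of the 3 were -0.03, -0.19 and 0.14, smaller than their spread between hearts (limma adjusted p = 0.993, 0.957 and 0.953).

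Among other zipper proteins that pair with AP-1 or bind related sites, 14 of 15 listed genes were measured and 0 passed, with 10 means higher and 4 lower in DJ-1 hearts and a median difference of 0.11. Of all genes 52.5% had the higher mean in DJ-1 hearts. The counts of direction in this and the following lists were not tested. Maf, a large MAF activator, had 6.93 to 7.16 in DJ-1 hearts and 7.21 to 7.41 in placebo hearts, and differed by -0.27 (SE 0.09, limma adjusted p = 0.824). It was the 1 gene of the 14 whose groups did not overlap (3.22% of all genes had none), and it was named for its small p. Jdp2, which pairs with JUN proteins and represses AP-1 sites, differed by 0.30 (SE 0.14), and Mafa, another large MAF, by 0.29 (SE 0.12), both with overlapping groups and an adjusted p of 0.824.

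For the kinases of the ERK, JNK and p38 cascades, which phosphorylate AP-1 proteins or their regulators, 16 of 20 genes were measured and 0 passed. Their median difference was -0.06, with 4 means higher and 12 lower. Map2k6, a kinase that switches on p38, differed by -0.32 (SE 0.14, limma adjusted p = 0.824), the p38 gene Mapk11 by -0.17 (SE 0.12) and the JNK gene Mapk9 by -0.13 (SE 0.10). The median spread of this list between hearts was 0.12, below the 0.17 of all genes.

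Transcriptional regulators of Fos and Jun were all measured (12 of 12) and 0 passed, with 2 means higher and 10 lower and a median of -0.06. Elk3, an ETS factor that joins serum response factor at the Fos promoter, differed by -0.28 (SE 0.13). Mrtfb, a coactivator of serum response factor, differed by 0.23 (SE 0.13), and Mef2c, a muscle factor that can act on the Jun promoter, by -0.16 (SE 0.11). Of genes for the turnover of AP-1 transcripts and proteins 10 of 11 were measured and 0 passed, with 2 means higher and 8 lower and a median of -0.07. Hnrnpd, which binds the AU-rich tails of early gene transcripts, differed by -0.27 (SE 0.11), the ubiquitin ligase gene Cop1, known to mark JUN for degradation, by -0.14 (SE 0.09), and the transcript decay gene Zfp36l2 by -0.27 (SE 0.18).

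Of genes known as AP-1 targets 22 of 25 were measured and 0 passed. The median difference was 0.20, with 16 means higher and 6 lower in DJ-1 hearts. This was less than the list's median spread between hearts of 0.36, which was above the 0.17 of all genes. Sphk1, a kinase that makes sphingosine 1-phosphate, had 6.63 to 7.16 in DJ-1 hearts and 6.15 to 6.91 in placebo hearts, a difference of 0.37 (SE 0.16, limma adjusted p = 0.824). Plaur, the urokinase receptor gene, differed by 0.56 (SE 0.28) and ranged from 6.55 to 7.74 in DJ-1 hearts and from 5.77 to 7.05 in placebo hearts. Hbegf, a ligand of the EGF receptor, differed by 0.27 (SE 0.15). Several targets in this list, Plaur among them, are also expressed by neutrophils, and the part of those cells in the target levels was not tested. Of the measured neutrophil markers, 13 of 13 had their higher mean in the DJ-1 group, against 52.5% of all genes. Only 11 of the 13 lay above background, and the groups overlapped in the summed level of these markers. Of these markers 0 passed an adjusted p of 0.05, and markers of 1 cell type are not independent of each other.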

How the data were processed

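Total RNA from frozen myocardium (RNA integrity number above 7, 100 ng per sample) was, per the labels' protocols, amplified, labelled with biotin and read on whole-transcript arrays. The deposited values are log2 expression levels made by the authors with RMA, per the submitters' processing notes; the version of RMA is not given in the sources used here. The table holds 35556 probe sets on 8 arrays. Platform annotation gave 1 symbol to 21789 probe sets, several to 1621 and none to 12146. Among probe sets of a gene the one with the highest mean was kept.

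DJ-1 was compared with placebo over 19938 genes by two-sided moderated tests (limma 3.58.1, R 4.3.3), without covariates and with Benjamini-Hochberg adjustment over all genes. The fit and the correlation test were tested on simulated data. Correlations used exact permutation over all pairings (numpy 2.4.6, scipy 1.17.1). The number of arrays limits the precision. P-values measure the spread between these samples. No scan date was used here. The sample codes in the labels run through one group and then the other, so a batch that followed them and the treatment cannot be told apart.

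The members, gene lists and tests were chosen with earlier results of these data known. The genes named were the 10 members, the 3 genes of smallest p in each pathway list, and the 3 genes most correlated with Fos, Jun and Atf3. Alternatives were 3 normalizations, a filter on level, the mean of probe sets, an intensity trend, no moderation, array weights, a block on replicate number and leaving out each array. Leaving out DJ-1 replicates 3 and 4 and correlating all 45 pairs were added after seeing the data. Deviations of same-numbered arrays from their group means correlated at 0.00, 0.17, 0.18 and 0.01, so the numbers were not taken as pairs.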

Additional observations from a re-analysis of the deposited data

Results flagged for a closer look

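Within a group of 4 hearts, 3 values among the named genes stood far from the other 3 by Dixon's test. Elk3 was at 7.91 in DJ-1 replicate 4, against 8.09 to 8.12 in the other DJ-1 hearts. Hnrnpd was at 7.20 in DJ-1 replicate 4, against 7.50 to 7.55 in the other DJ-1 hearts. Plk3 was at 5.88 in placebo replicate 1, against 6.29 to 6.34 in the other placebo hearts. The test was run on 68 groups of 34 genes, and chance alone marks about 1 in 20. No AP-1 gene was among them, although Fosb in placebo replicate 1 lay at -2.08 from its mean over all hearts. That value, 5.98 against 8.26 to 8.73 in the other placebo hearts, missed the cut-off only narrowly.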

How the results depend on the processing

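Under 179 combinations of member gene and alternative, 165 kept their direction, 14 reversed and 0 passed an adjusted p of 0.05 (lowest 0.689). The level filter, mean of probe sets, intensity trend, no moderation and replicate block cannot change a member's difference, only its p. Their combinations kept direction by construction, so the 165 overstates how stable the directions are. Leaving out each array in turn gave -0.25 to 0.32 for Fos, -0.22 to 0.69 for Fosb, -0.36 to 0.18 for Jun, -0.069 to 0.12 for Batf, 0.17 to 0.75 for Atf3, 0.04 to 0.24 for Junb, -0.21 to -0.03 for Jund, 0.09 to 0.27 for Maff, 0.02 to 0.33 for Fosl1 and 0.24 to 0.48 for Fosl2. Without DJ-1 replicates 3 and 4, Fos, Fosb and Atf3 turned to -0.21, -0.11 and -0.053. Jun was at 0.0001 with cyclic loess. Normalizations moved the median of all genes by at most 0.04. The number of genes past the threshold was 0 in every setting except without DJ-1 replicate 3 (range 0 to 1 over the arrays left out), where Pramel27, named after its values were seen, passed. With the replicate block it was 0, the Atf3 difference of 0.48 had an unadjusted p of 0.0277 (adjusted p = 0.746), and no member's call changed. Without the 2 hearts farthest from the Fos median, the correlations with Fos of Fosb (0.79), Jun (0.84), Jund (0.90) and Atf3 (0.74) lost their calls with fewer hearts, and that of Maff turned to -0.66. Fosl2 had an unadjusted p under 0.05 in 10 of 18 alternatives. Batf lies below the median level, so the level filter gave no value for it. Apart from the smaller number of hearts, the cause of these changes was not tested. With 4 arrays a group, intervals of Fos, Fosb, Jun and Atf3 are wide.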
